A study of Homo sapiens with 12 samples.

Results

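The inflammatory cytokine and NF-kB feedback genes examined here were 10 genes: the chemokine genes CXCL8, CXCL1 and CCL2, the cytokine genes IL6 and LIF, the prostaglandin synthase gene PTGS2, and the NF-kB pathway genes NFKBIA, TNFAIP3, RELB and NFKB2. They were picked by name, as the rows of the deposited raw count table that carry these symbols. Each symbol had 1 row, so the set holds 10 of the 63241 genes in the table, and all 10 were among the 19631 genes abundant enough to be tested. RNA was sequenced from ONS76 and DAOY, 2 established human medulloblastoma lines, medulloblastoma being a tumour of the cerebellum. Both lines were labelled wild type, and all 4 groups were kept in 6-well plates in artificial cerebrospinal fluid (aCSF). In each line, 1 group stood on an orbital shaker at 100 rpm for 18 h, which moves the medium over the cells and is labelled FSS (fluid shear stress), and the other stayed static. Each of the groups ONS76 FSS, ONS76 static, DAOY FSS and DAOY static had 3 libraries. FSS plates alone were shaken, so shear and anything else that shaking brings cannot be told apart. The series describes its replicates as biological, but how the cultures were kept apart is not given, so the p-values speak for the scatter among these libraries.

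NF-kB is a family of dimeric transcription factors held in the cytoplasm by inhibitor proteins and released when cells sense cytokines, microbial products, damage or mechanical stress. In the canonical branch, kinases mark the inhibitor IkB-alpha, encoded by NFKBIA, for destruction, and the freed dimers switch on chemokine and cytokine genes. The same dimers raise NFKBIA and TNFAIP3, whose products shut the signal off again, and RELB and NFKB2, which form the dimer of the slower noncanonical branch. Many of the cytokine messages are short-lived because AU-rich elements in their 3′ untranslated regions recruit decay factors.

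The DNA just upstream of the members is shown because NF-kB binds a short G-rich and T- or C-rich sequence, the κB site, there. RefSeq promoter entries (build GRCh38.p14) matched 7 of the 10 members. CCL2, LIF and RELB had no entry. NFKB2 had 3 annotated starts, giving 9 windows of 250 bases. The 150 bases before the start are printed 5′ to 3′ in the direction of the gene, in lower case, and capitals mark every match of the κB consensus or of its shorter core GGNNTTTCC on either strand. Positions are counted back from -1, the base before the RefSeq start. The windows are those of CXCL8 (chr4:73740419-73740568, plus strand), CXCL1 (chr4:73869243-73869392, plus), IL6 (chr7:22727050-22727199, plus), PTGS2 (chr1:186680424-186680573, minus), NFKBIA (chr14:35404750-35404899, minus), TNFAIP3 (chr6:137867109-137867258, plus) and the second and the third start of NFKB2 (chr10:102394428-102394577 and chr10:102395555-102395704, plus).
CXCL8: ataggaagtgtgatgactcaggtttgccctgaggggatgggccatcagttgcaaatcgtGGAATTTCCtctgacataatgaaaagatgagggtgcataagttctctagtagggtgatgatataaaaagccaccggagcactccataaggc
CXCL1: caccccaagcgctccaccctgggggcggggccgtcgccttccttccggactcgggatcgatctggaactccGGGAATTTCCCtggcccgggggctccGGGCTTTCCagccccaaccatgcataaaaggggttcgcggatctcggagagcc
IL6: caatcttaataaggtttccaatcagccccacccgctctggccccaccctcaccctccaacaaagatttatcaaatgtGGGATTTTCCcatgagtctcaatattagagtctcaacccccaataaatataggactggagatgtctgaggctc
PTGS2: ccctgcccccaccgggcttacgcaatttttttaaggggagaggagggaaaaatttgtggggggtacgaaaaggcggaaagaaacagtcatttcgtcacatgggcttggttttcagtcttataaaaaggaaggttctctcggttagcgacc
NFKBIA: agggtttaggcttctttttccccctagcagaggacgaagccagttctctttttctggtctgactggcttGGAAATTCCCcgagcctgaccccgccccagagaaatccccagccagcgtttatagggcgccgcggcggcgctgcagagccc
TNFAIP3: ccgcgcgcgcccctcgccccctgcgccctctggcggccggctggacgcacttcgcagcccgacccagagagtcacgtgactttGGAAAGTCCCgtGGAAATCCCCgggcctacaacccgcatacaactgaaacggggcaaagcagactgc
NFKB2, start 2: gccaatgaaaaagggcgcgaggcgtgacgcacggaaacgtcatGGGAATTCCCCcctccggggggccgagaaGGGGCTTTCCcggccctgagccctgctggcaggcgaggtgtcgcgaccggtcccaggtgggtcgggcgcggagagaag
NFKB2, start 3: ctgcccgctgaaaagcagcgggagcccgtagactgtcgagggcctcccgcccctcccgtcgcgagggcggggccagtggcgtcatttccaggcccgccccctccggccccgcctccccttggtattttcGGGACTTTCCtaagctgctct

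A κB consensus match stood in 5 of the 7 members with an entry, CXCL1, IL6, NFKBIA, TNFAIP3 and NFKB2. That was 6 of the 9 member windows, where 9.95% of all 34943 RefSeq windows of this length held one. CXCL8 held the core without a consensus match, at -91 to -83. Counted by itself, whether or not a consensus match was there, the core was in 7 of the 9 windows and 6 of the 7 members. It was in 5.48% of all windows, and the share of all windows with either form was not computed. The core was chosen after these sequences had been seen, and most core matches lie inside a consensus match. TNFAIP3 carried 2 adjacent consensus matches, at -67 to -58 and -55 to -46. PTGS2 had neither form in its window, and neither had the first start of NFKB2. An AP-1 site, TGANTCA, was in the CXCL8 window alone (-137 to -131), and 6.59% of all windows held one. The TATA sequence TATAAA stood close to the start in CXCL8 and PTGS2 and, on the opposite strand, in NFKBIA, and was in 10.8% of all windows. These are matches of letters and do not show binding. GENCODE 29 lets the genes CXCL8, IL6, PTGS2 and TNFAIP3 begin upstream of the RefSeq start used here.

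**Figure D1:**
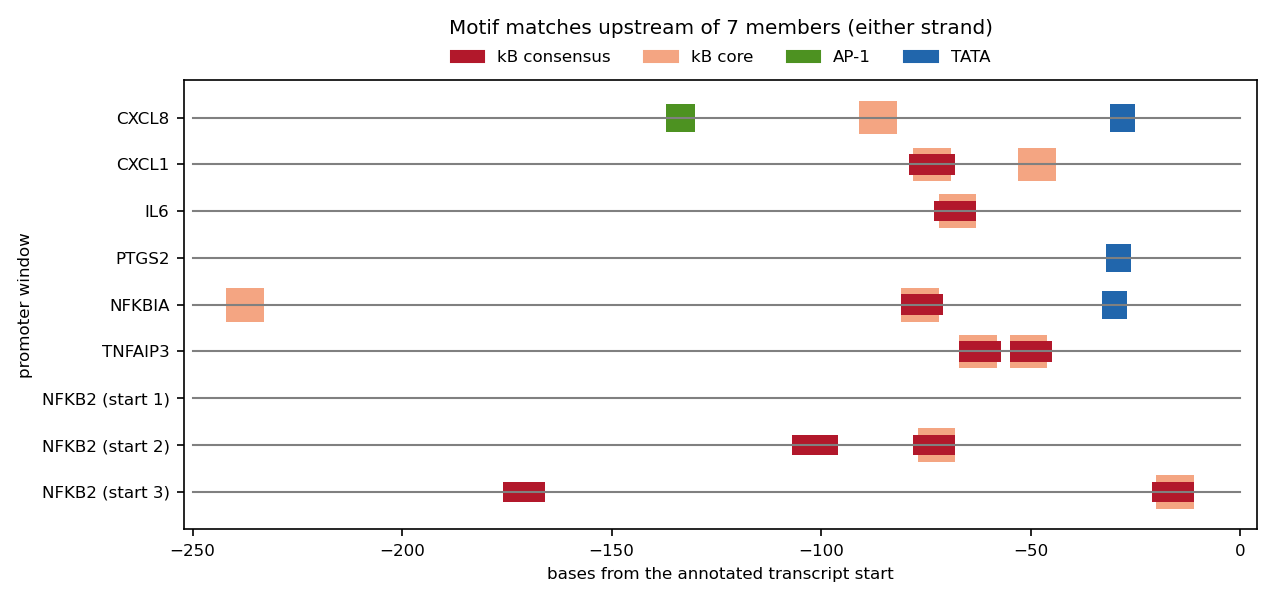
Motif matches on either strand in the 250 bases upstream of 7 members; the x axis is distance in bases from the annotated transcript start, and each line is 1 RefSeq window. Most κB matches lie close to the start, PTGS2 and the first start of NFKB2 have none, and the AP-1 match of CXCL8 stands at -137.

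The 3′ untranslated regions were searched for the pentamer ATTTA, the letters shared by AU-rich elements. Over 17637 genes (GENCODE 29, principal transcripts, regions of at least 100 bases) the median density was 1.57 pentamers per kilobase. IL6 had 6 in 429 bases (14.0 per kilobase), PTGS2 had 22 in 2562 (8.59), CXCL8 had 9 in 1252 (7.19) and CXCL1 had 5 in 706 (7.08). The longer nonamer TTATTTATT, present in 8.05% of these genes, occurred 3 times in CXCL1 and 2 times in LIF. It occurred 1 time each in CXCL8, PTGS2 and TNFAIP3. RELB had no pentamer in 404 bases. The densest 30 bases of 3 members are shown, with each pentamer in capitals, because the pentamers there run into each other.
CXCL8, 3′ region bases 644 to 673: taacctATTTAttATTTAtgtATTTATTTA
CXCL1, 3′ region bases 129 to 158: cttaggagaagtcttctATTTATTTATTTA
PTGS2, 3′ region bases 1 to 30: aagtctaatgatcatATTTATTTATTTAta
The remaining members, CCL2, LIF, NFKBIA, TNFAIP3 and NFKB2, had 1 to 7 pentamers each. NFKBIA had 5.98 per kilobase and NFKB2 had 6.76, the latter from 1 pentamer in 148 bases. CCL2, TNFAIP3 and LIF had 2.66, 2.51 and 2.18 per kilobase.

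Depth ran from 38.1 to 49.3 M counts per library. In every pair of replicates of a group, the squared differences were 3.63 to 8.79 times those of counting error (chi-square per degree of freedom). Within static ONS76, replicates 1 and 2 stood apart from replicate 3: the cardiac myosin transcript MYH6 was at 34.6 and 13.8 CPM (counts scaled to library size) in them, at 0.0558 CPM in replicate 3, and at 0.212 CPM or less in every other library. Each ONS76 result was therefore also computed with static replicate 3 alone, a fit in which that single library is assumed to vary like the other groups, so that a call can be lost there with a similar fold. Of 10 markers of medulloblastoma, the labelled tumour, the summed level was 58.6 to 67.3 CPM in ONS76 and 156 to 172 CPM in DAOY, most of it from PTCH1 and ZIC2 in ONS76 and from these, ZIC1, GLI1 and GLI2 in DAOY. OTX2 and EOMES were listed at 0 in all ONS76 libraries and NEUROD1 in all 12, and ATOH1 and LMX1A were under the filter on low counts. Summed leukocyte markers (12 genes) ran at 4.17 to 4.72 CPM in ONS76 FSS, 3.16 to 3.51 in ONS76 static, 11.2 to 13.8 in DAOY FSS and 7.09 to 10.4 in DAOY static, and CD14 and CSF1R of this list were called higher under FSS in DAOY. Summed endothelial markers (6 genes) ran at 44.9 to 47.7, 31.7 to 32.6, 21.9 to 26.5 and 17.3 to 18.5 CPM in the same order, with PECAM1 and CDH5 called higher under FSS in both lines, KDR called lower in ONS76 (-1.75, log2), and VWF, TEK and CLDN5 not called in either. No gene of either list was at 0 in all libraries. Both sums were higher under FSS in both lines. So was the medulloblastoma sum, at 66.4 to 67.3 CPM against 58.6 to 60.4 static in ONS76. In DAOY it was at 163 to 172 against 156 to 161. Summed neuronal and glial markers (9 genes, mostly VIM) were lower under FSS. They ran at 1285 to 1369 CPM against 1437 to 1504 static in ONS76, and 1760 to 1841 against 1989 to 2102 in DAOY. The part of these sums in the member changes below was not tested.

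The members differed widely in level, and the lines ranked them differently. On the deposited TPM scale (transcript abundance per gene length, scaled alike in each library), NFKBIA and NFKB2 were the most abundant members in all 4 groups. Mean NFKBIA was 94.4 TPM in ONS76 FSS, 70.5 in ONS76 static, 107 in DAOY FSS and 88.0 in DAOY static. CCL2 followed in DAOY, at 62.9 TPM under FSS and 33.9 static, and was among the scarcest in ONS76, at 0.132 and 0.426 TPM. PTGS2 and LIF took that place in ONS76, with PTGS2 at 44.0 TPM under FSS and 30.4 static and LIF at 32.0 and 27.2 TPM. In DAOY they were at 14.5 and 9.36 TPM (PTGS2) and 6.79 and 6.67 TPM (LIF). IL6 was scarce everywhere, from 0.169 TPM in ONS76 FSS to 0.989 TPM in both DAOY groups. In bulk RNA, fewer cells of a type and less RNA per cell cannot be told apart, which holds for every level and difference here. The order of the 4 groups was the same by TPM and by CPM for 7 of the 10 members, the exceptions being IL6, NFKBIA and NFKB2.

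**Figure D2:**
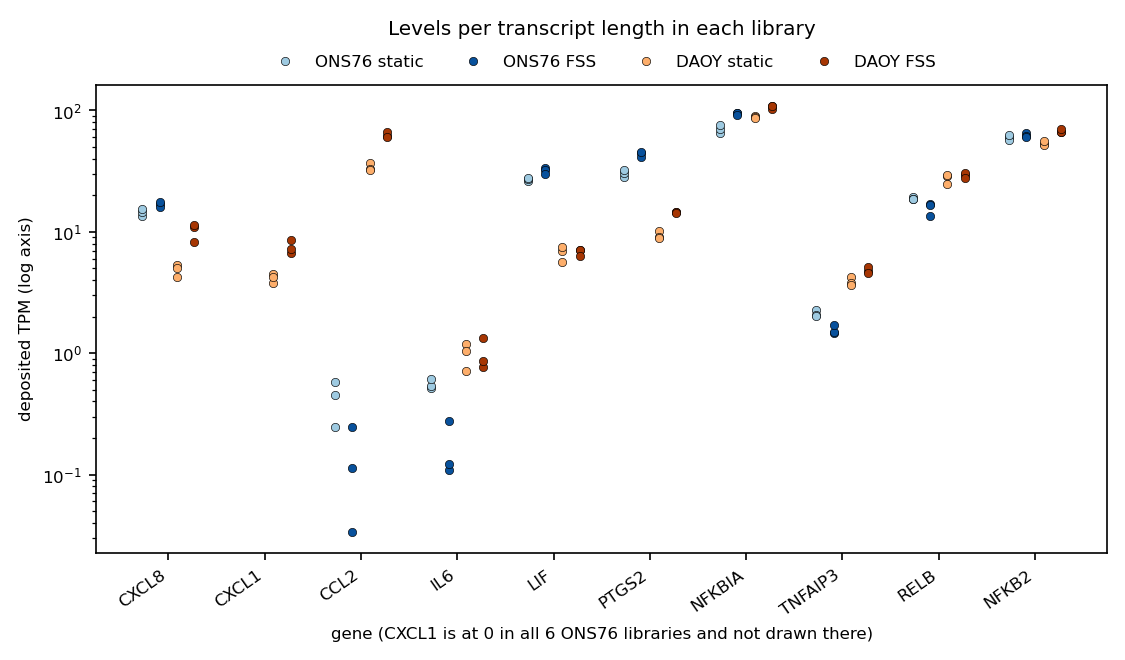
Deposited TPM of each member in each of the 12 libraries (log axis), coloured by group. CCL2 is highest in DAOY and lies below 1 TPM in ONS76, LIF and PTGS2 are higher in ONS76, and CXCL1 is at 0 in all 6 ONS76 libraries and not drawn there.

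More of the members rose under FSS in DAOY than in ONS76. In DAOY, 7 of the 10 members rose (CXCL8, CXCL1, CCL2, PTGS2, NFKBIA, TNFAIP3 and NFKB2) and 0 fell, where 39.7% of all tested genes were called in that comparison, 19.5% higher and 20.1% lower. Leaving out DAOY FSS replicate 2 removed CXCL1 and TNFAIP3 from that count. Leaving out DAOY FSS replicate 1, static replicate 2 or static replicate 3 removed TNFAIP3. In ONS76, 3 rose (PTGS2, NFKBIA and LIF) and 4 fell (IL6, CCL2, TNFAIP3 and RELB), against 28.0% of all tested genes called, 14.1% higher and 13.9% lower. With static replicate 3 alone, without ONS76 FSS replicate 2, or without ONS76 static replicate 1, the count of members that fell in ONS76 was 2. CXCL1 was listed at 0 in every ONS76 library. A call is an adjusted p under 0.05 in edgeR's quasi-likelihood test, with Benjamini-Hochberg adjustment over all 19631 tested genes, on fitted log2 fold changes of FSS over static. The median change over all tested genes was 0.00 (log2) in both lines. FSS and static libraries did not overlap for 7 members in DAOY and for 7 in ONS76, where 49.9% and 38.7% of all tested genes did not.

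**Figure D3:**
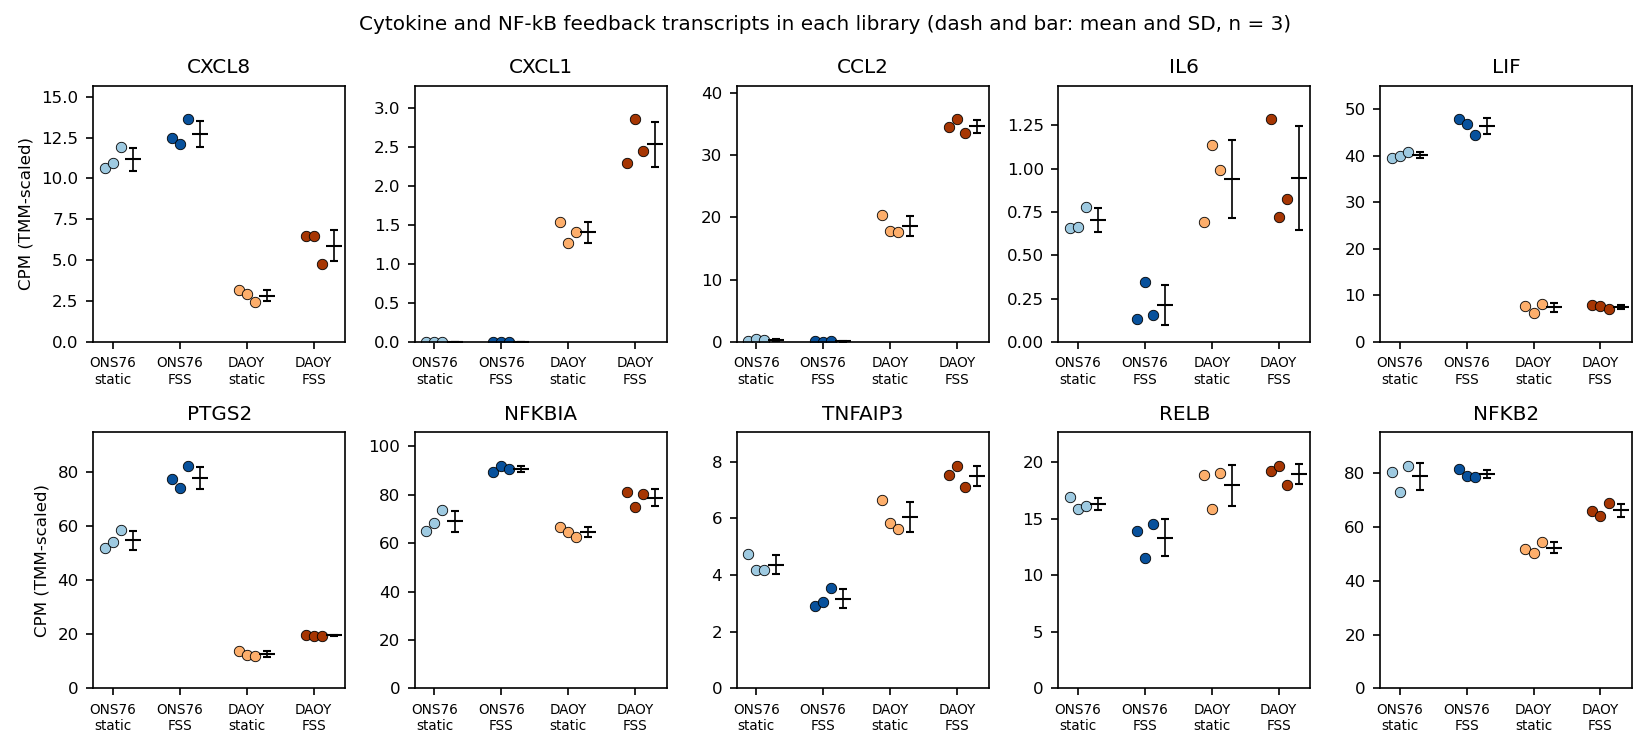
TMM-scaled CPM of each member in each library, grouped by line and condition; dashes and bars are the mean and SD of 3 libraries, and each panel has its own axis from 0. DAOY FSS libraries lie above DAOY static for CXCL8, CXCL1, CCL2, PTGS2, NFKBIA, TNFAIP3 and NFKB2, whereas in ONS76 IL6, TNFAIP3 and RELB lie below static under FSS.

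Of the chemokines, CXCL8, CXCL1 and CCL2 all rose in DAOY. CXCL8 (ENSG00000169429, chr4:73740506-73743716, plus strand) encodes interleukin 8, which draws neutrophils through the receptors CXCR1 and CXCR2. Its CPM, scaled by TMM as are all CPM here, was 6.45, 6.46 and 4.78 in the DAOY FSS libraries and 3.14, 2.90 and 2.45 in the static ones. Every DAOY FSS library was above every static library, and the log2 fold change was 1.06 ± 0.13 (SE; adjusted p = 5.50e-08, edgeR). In ONS76 it stood at 12.5, 12.1 and 13.6 CPM under FSS and 10.6, 10.9 and 11.9 static. These libraries also did not overlap, but the difference of 0.19 ± 0.11 (log2) did not pass the test (adjusted p = 0.203, edgeR). The gene was thus higher in ONS76 in both conditions, and its response was larger in DAOY by 0.87 ± 0.17 (log2; adjusted p = 0.000272 for the difference of responses, edgeR). Over all tested genes, 8.34% were called higher and 10.7% lower in this difference of responses.

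CXCL1 (ENSG00000163739, chr4:73869393-73871242, plus), a neutrophil chemokine of the same receptor family, was seen in DAOY alone. It had 2.29, 2.86 and 2.46 CPM under FSS and 1.54, 1.27 and 1.41 static, without overlap, a rise of 0.85 ± 0.25 (log2; adjusted p = 0.00636, edgeR). Without DAOY FSS replicate 2 the rise was 0.74 and the adjusted p 0.0502, with a range over 22 alternatives of 8.56e-05 to 0.0502. Against a floor of 3 counts over the 3 ONS76 libraries of a group, DAOY was at least 54.4-fold higher when static and at least 99.0-fold higher under FSS. CXCL1, CXCL2 and CXCL3 are closely related copies, and how the counting treated reads shared between them is not given, so the split of reads among them is uncertain. CXCL2 and CXCL3 had counts in ONS76, at 1.07 and 0.666 mean CPM when static.

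CCL2 (ENSG00000108691, chr17:34255218-34257203, plus) encodes the monocyte chemoattractant MCP-1. In DAOY it was at 34.6, 35.8 and 33.6 CPM under FSS and 20.4, 17.9 and 17.6 static. The FSS libraries lay well above the static ones, and the rise was 0.90 ± 0.087 (log2; adjusted p = 5.10e-10, edgeR). In ONS76 it was close to absent, with 3, 1 and 7 raw counts under FSS (sum 11, exact Poisson 95% interval 5.49 to 19.7) and 8, 15 and 12 static (sum 35, interval 24.4 to 48.7). These intervals cover counting error only. The ONS76 change was -1.65 ± 0.49 (log2; adjusted p = 0.00951, edgeR), and its libraries overlapped narrowly in CPM, at 0.0792, 0.0245 and 0.183 under FSS and 0.182, 0.415 and 0.335 static. The ONS76 call did not hold when each line was fitted alone (-1.68, adjusted p = 0.0796), without FSS replicate 2 (-1.18, adjusted p = 0.0822) or without static replicate 2 (-1.39, adjusted p = 0.0634), edgeR. Without FSS replicate 3 the value was -2.50. Its adjusted p ranged from 0.00225 to 0.0822 over 22 alternatives. The responses of the lines differed by 2.55 ± 0.49 (log2; adjusted p = 0.000220, edgeR), and the call held in all 21 alternatives. Its size ran from 1.21 in limma on log2(TPM + 1) to 3.39 without ONS76 FSS replicate 3.

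Both cytokines of the IL6 family changed in ONS76 and neither was called in DAOY. IL6 (ENSG00000136244, chr7:22725884-22732002, plus) encodes interleukin 6, which signals through the shared receptor gp130 to STAT3. In ONS76 it had 5, 14 and 6 raw counts under FSS (sum 25, exact Poisson 95% interval 16.2 to 36.9) and 29, 24 and 28 static (sum 81, interval 64.3 to 101), or 0.132, 0.343 and 0.157 CPM against 0.660, 0.664 and 0.781. Every ONS76 FSS library was below every static one, and IL6 fell by 1.70 ± 0.42 on the log2 scale (adjusted p = 0.00222, edgeR). That call held in all 21 alternatives in which it was tested. In DAOY the libraries overlapped, at 1.28, 0.720 and 0.827 CPM under FSS and 0.691, 1.13 and 0.990 static. The DAOY difference was 0.00 (log2; 95% interval -0.63 to 0.64, adjusted p = 0.997, edgeR). The difference of responses was 1.71 ± 0.53 (log2; adjusted p = 0.0213, edgeR). It missed the threshold without ONS76 FSS replicate 1 (adjusted p = 0.0690), ONS76 FSS replicate 3 (0.0605), DAOY FSS replicate 1 (0.0826) or DAOY static replicate 1 (0.0560), at 1.42 to 1.53 in these, and in limma on log2(TPM + 1) (0.41, adjusted p = 0.106). The adjusted p ranged from 0.00705 to 0.106 over 20 alternatives.

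LIF (ENSG00000128342, chr22:30240447-30246851, minus), leukaemia inhibitory factor, signals through gp130 with its own receptor subunit. It was at 47.9, 46.8 and 44.4 CPM in ONS76 FSS and 39.6, 39.9 and 40.9 CPM in ONS76 static. The libraries did not overlap, but the rise was small, 0.21 ± 0.066 (log2; adjusted p = 0.0158, edgeR). It missed the threshold without FSS replicate 1 (adjusted p = 0.0651), FSS replicate 2 (0.0568) or static replicate 1 (0.0522), with static replicate 3 alone (0.233), and in limma on log2 TPM (0.0673 and 0.0863). The rise in these was 0.19 to 0.23. Over 22 alternatives the adjusted p ran from 0.00241 to 0.233. In DAOY it was at 7.89, 7.74 and 7.01 CPM under FSS and 7.76, 6.24 and 8.20 static, overlapping, with a difference of 0.03 ± 0.088 (log2; adjusted p = 0.824, edgeR). LIF was the member with the largest static excess in ONS76. The difference of its responses, -0.18 (log2; 95% interval -0.39 to 0.04), was not called (adjusted p = 0.287, edgeR), but without DAOY static replicate 2 it was -0.29 and called (adjusted p = 0.0479, range over 21 alternatives 0.0479 to 0.653).

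PTGS2 (ENSG00000073756, chr1:186671791-186680427, minus), the inducible cyclooxygenase that makes the prostaglandin precursor, rose in both lines. In ONS76 its libraries stood at 77.2, 73.9 and 82.2 CPM under FSS and 51.7, 53.9 and 58.4 static. In DAOY they stood at 19.8, 19.4 and 19.4 CPM under FSS and 13.9, 12.2 and 11.8 static. In neither line did the conditions overlap. The rise was 0.51 ± 0.055 (log2; adjusted p = 1.08e-08, edgeR) in ONS76 and 0.63 ± 0.067 (log2; adjusted p = 3.80e-09, edgeR) in DAOY. The responses were not shown to differ, at 0.12 (log2; 95% interval -0.05 to 0.29, adjusted p = 0.395, edgeR). Among the printed upstream windows, that of PTGS2 alone held no κB match. Its 3′ region held the most pentamers by count, 22 in 2562 bases, but IL6 had more per kilobase. Whether either bears on the rise was not tested.

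The canonical inhibitor rose in both lines, whereas the other feedback gene moved in opposite directions. NFKBIA (ENSG00000100906, chr14:35401511-35404749, minus) encodes IkB-alpha. It was at 89.4, 91.9 and 90.8 CPM in ONS76 FSS and 65.1, 68.1 and 73.7 in ONS76 static, without overlap. DAOY had 81.0, 74.9 and 80.5 CPM under FSS and 66.5, 64.5 and 62.6 static, also without overlap. NFKBIA thus rose by 0.40 ± 0.047 (log2; adjusted p = 5.73e-08, edgeR) in ONS76 and by 0.29 ± 0.046 (log2; adjusted p = 6.76e-06, edgeR) in DAOY. The difference of responses was -0.11 (log2; 95% interval -0.24 to 0.02, adjusted p = 0.281, edgeR) and was not called.

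TNFAIP3 (ENSG00000118503, chr6:137867188-137883312, plus) encodes the ubiquitin-editing enzyme A20, which ends signalling upstream of the kinases. In ONS76 its values were 2.90, 3.04 and 3.55 CPM under FSS and 4.76, 4.18 and 4.18 static. All FSS libraries were the lower ones, and TNFAIP3 fell by 0.47 ± 0.13 on the log2 scale (adjusted p = 0.00771, edgeR). The call was lost, at a similar change of -0.40 in each, without ONS76 static replicate 1 (adjusted p = 0.0552) and with static replicate 3 alone (0.163), with a range of 0.00550 to 0.163 over 22 alternatives. In DAOY the order was the other way, with 7.53, 7.86 and 7.12 CPM under FSS and 6.65, 5.85 and 5.63 static. That rise, 0.31 ± 0.12 (log2; adjusted p = 0.0320, edgeR), was lost when any 1 of 4 DAOY libraries was left out, FSS replicate 1 (adjusted p = 0.0861), FSS replicate 2 (0.132), static replicate 2 (0.0986) and static replicate 3 (0.133), with no filter on low counts (0.0631) and in limma on log2(TPM + 0.1) (0.0763), at 0.26 to 0.31 in these. The range over 22 alternatives was 0.0182 to 0.133. The difference between the lines, 0.78 ± 0.18 (log2; adjusted p = 0.00153, edgeR), was called in all 21 alternatives.

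The subunits of the noncanonical dimer did not move as a pair. NFKB2 (ENSG00000077150, chr10:102394110-102402529, plus) encodes the precursor whose processing yields the DNA-binding partner of RelB. It was at 65.8, 63.9 and 68.9 CPM in DAOY FSS and 51.9, 50.5 and 54.4 in DAOY static, without overlap, a rise of 0.34 ± 0.048 (log2; adjusted p = 7.81e-07, edgeR). In ONS76 it was at 81.4, 78.9 and 78.6 CPM under FSS and 80.6, 73.1 and 82.7 static, overlapping, with a difference of 0.01 ± 0.047 (log2; adjusted p = 0.871, edgeR). The DAOY response was larger by 0.33 ± 0.068 (log2; adjusted p = 0.000604, edgeR).

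RELB (ENSG00000104856, chr19:45001430-45038198, plus) encodes RelB itself. In ONS76 it was at 13.9, 11.5 and 14.5 CPM under FSS and 16.9, 15.9 and 16.1 static. The FSS libraries were all lower, and RELB fell by 0.29 ± 0.088 on the log2 scale (adjusted p = 0.0112, edgeR). The lowest of them was replicate 2. Without it the change was -0.20 (adjusted p = 0.131), without static replicate 1 it was -0.26 (0.0530) and with static replicate 3 alone -0.27 (0.143), so the call was lost in each, within a range of 0.00396 to 0.143 over 22 alternatives. In DAOY the libraries overlapped, at 19.2, 19.7 and 18.0 CPM under FSS and 18.9, 15.9 and 19.0 static, with a difference of 0.08 ± 0.084 (log2; adjusted p = 0.486, edgeR). The difference of responses, 0.37 ± 0.12 (log2; adjusted p = 0.0267, edgeR), was lost without ONS76 FSS replicate 2 (adjusted p = 0.124), ONS76 static replicate 1 (0.0688), DAOY FSS replicate 1 (0.0590), DAOY FSS replicate 2 (0.0700) or static DAOY replicate 2 (0.106), with ONS76 static replicate 3 alone (0.131) and in limma on TPM (0.0652 and 0.0752). It was 0.27 to 0.36 in these, and its adjusted p ranged from 0.0145 to 0.131 over 21 alternatives.

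Across the 9 members with counts in both lines, the response was larger (more positive) in DAOY for 6 (CXCL8, CCL2, IL6, TNFAIP3, RELB and NFKB2) and smaller for 0, where 19.1% of all genes were called in either direction. For CCL2 and TNFAIP3 a rise in DAOY stood against a fall in ONS76. For IL6 and RELB a fall in ONS76 stood against a DAOY change that was not called. For CXCL8 and NFKB2 a rise in DAOY stood against an ONS76 change that was not called. PTGS2, NFKBIA and LIF had responses that were not shown to differ.

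**Figure D4:**
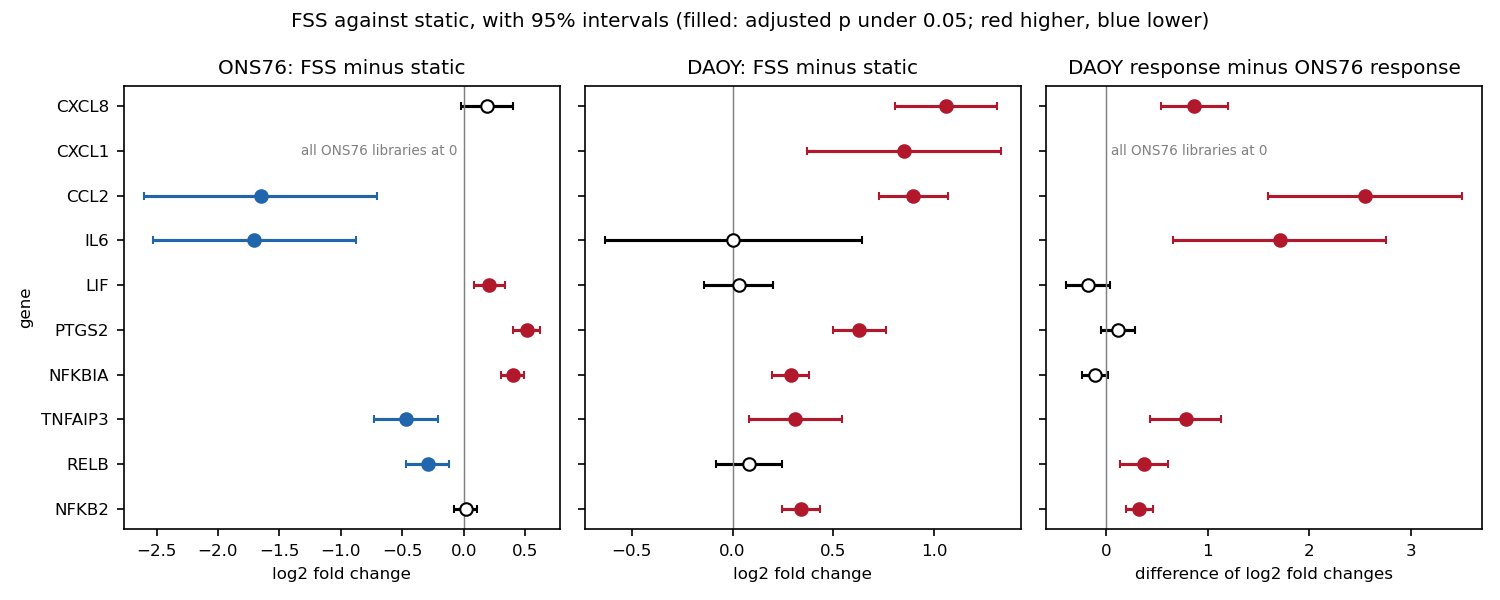
Log2 fold changes of FSS over static in ONS76 and DAOY and the difference of these responses, with 95% intervals; filled points passed an adjusted p of 0.05 (edgeR), red higher and blue lower. PTGS2 and NFKBIA lie above 0 in both lines, TNFAIP3 and CCL2 lie on opposite sides, and all 6 called differences of responses lie above 0.

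For CCL2, LIF, PTGS2 and CXCL8, the static lines differed by more than either line changed under FSS. Between static groups, where 81.0% of all tested genes were called (37.9% higher in ONS76 and 43.2% lower), 4 members were higher in ONS76 and 3 in DAOY. The libraries of the lines did not overlap for these 7 members, as for 81.8% of all tested genes. LIF was higher in ONS76 by 2.44 ± 0.077, PTGS2 by 2.11 ± 0.063, CXCL8 by 1.97 ± 0.12 and NFKB2 by 0.59 ± 0.048 (log2, SE). CCL2 differed by -5.93 ± 0.17 (log2) and TNFAIP3 by -0.46 ± 0.12, both higher in DAOY, as was CXCL1 by the bound above. IL6 (-0.42, adjusted p = 0.255), NFKBIA (0.10, adjusted p = 0.0638) and RELB (-0.14, adjusted p = 0.144) were not called (edgeR). These line differences depended on the scaling. The median of all genes was -0.10 (log2) under TMM, -0.32 under upper-quartile scaling and -0.33 and -0.50 in limma on log2(TPM + 1) and log2(TPM + 0.1). TMM gave 7433 genes higher and 8475 lower in ONS76, and the limma fits gave 5077 and 11005, and 5057 and 11063. Under upper-quartile scaling and both TPM fits NFKBIA turned to -0.13, -0.32 and -0.32 and was called lower in ONS76. RELB was then called lower in ONS76 as well, at -0.36, -0.52 and -0.55, as it was under RLE scaling and in DESeq2 (-0.20 in both) and without DAOY static replicate 2 (-0.22). NFKB2 was higher in ONS76 by 0.37 under upper-quartile scaling and by 0.17 in both TPM fits. IL6 was called lower in ONS76 in the TPM fits (-0.35 and -0.71). NFKBIA was called higher in ONS76 without ONS76 static replicate 1 (0.14) or DAOY static replicate 1 (0.12) and with ONS76 static replicate 3 alone (0.19).

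The neighbouring pathway genes are given from 11 lists of 118 tested genes, chosen as parts of the same pathways. In ONS76, 24 of them rose and 25 fell. In DAOY, 40 rose and 25 fell. As shares these were 20.3% and 21.2% in ONS76 and 33.9% and 21.2% in DAOY, beside 14.1% and 13.9%, and 19.5% and 20.1%, of all tested genes. Another 19 listed genes were under the filter on low counts, TNF among them, and 25 were at 0 in every library. The latter include CBR1, a widely expressed carbonyl reductase, so a 0 in this table may stand for a gene that is in fact transcribed.

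Of 9 NF-kB subunit and kinase genes, 1 rose and 1 fell in ONS76, and 1 rose and 3 fell in DAOY (median change -0.04 and -0.11, log2). NFKB1, the canonical subunit gene, rose by 0.17 in ONS76 and 0.27 in DAOY (log2). IKBKG, the regulatory subunit of the IkB kinase, changed by -0.29 and -0.16, and the kinase genes CHUK and IKBKE fell in DAOY. Of 23 other feedback and target genes, 4 rose and 5 fell in ONS76 and 8 rose and 5 fell in DAOY (medians -0.04 and 0.02). The nuclear IkB gene BCL3 rose by 0.62 in DAOY. The TNFAIP3-binding TNIP2 was called lower in ONS76 (-0.14) and higher in DAOY (0.32), whereas TNIP1 was called lower in both (-0.11 and -0.33). The early-response gene IER3 rose in both lines, by 0.27 and 0.40, and TNFAIP8 fell in both, at -0.51 and -0.92. The mitochondrial dismutase SOD2, a common NF-kB target, was called lower in both lines, at -0.26 in ONS76 and -0.15 in DAOY. NFKBIZ rose by 0.27 in ONS76 and was not called in DAOY.

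Among ligands and receptors near the members, 1 of 3 other neutrophil-attracting CXC chemokines rose in DAOY, CXCL2 by 1.09 (log2), and 0 of 3 were called in ONS76 (medians 1.09 and -0.09). Of 5 other chemokines, 4 rose in DAOY and 2 in ONS76, where 1 fell (medians 1.05 over 5 genes and 0.35 over 4, without CCL7, which is at 0 in ONS76). CCL26, an eosinophil chemokine, rose by 1.77 in ONS76 and 2.13 in DAOY, and CCL7, a monocyte chemokine next to CCL2 in the genome, by 1.46 in DAOY. CX3CL1, the membrane-bound fractalkine, changed by -0.34 in ONS76 and 1.05 in DAOY. Its mean level was 118 CPM under FSS and 150 static in ONS76, but 0.857 and 0.417 CPM in DAOY. Of 4 chemokine receptors, CXCR4 rose in both lines, by 1.08 and 1.43, and CCR7 changed by -1.91 in DAOY (list medians 0.07 and 0.35). Mean levels of CXCL2, CCL7, CX3CL1 and CCR7 were below 1 CPM in both DAOY groups, as was CXCR4 in both ONS76 groups. Those changes rest on low counts. IL11, another ligand of the IL6 family, rose by 0.48 (log2) in DAOY and was not called in ONS76.

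In the gp130 and STAT3 list, 1 of 13 genes rose and 5 fell in ONS76, and 4 rose and 3 fell in DAOY (medians -0.05 and 0.01). SOCS3, the feedback inhibitor that STAT3 induces, was at 45.2 ± 2.8 CPM under FSS and 68.5 ± 3.1 static in ONS76 (SD, n = 3) and at 26.0 ± 0.35 and 22.8 ± 2.9 CPM in DAOY. It changed by -0.60 (log2) in ONS76 and 0.19 in DAOY, and the responses differed by 0.79 ± 0.091 (adjusted p = 1.20e-07, edgeR). STAT3 changed by -0.15 and 0.16, and the receptor subunit IL6ST and the kinase JAK2 by -0.21 and -0.34 in ONS76. In DAOY IL6R rose by 0.25, and the kinase TYK2 and the inhibitor PIAS3 changed by -0.27 and -0.32. In the prostaglandin list, which leaves out PTGS2 itself, 6 of 14 genes rose and 1 fell in ONS76, and 7 rose and 3 fell in DAOY (medians 0.20 over 13 genes, without PTGER2, and 0.19). The phospholipase gene PLA2G4A, which frees the cyclooxygenase substrate, rose by 0.70 in ONS76 and 0.27 in DAOY, the constitutive cyclooxygenase PTGS1 by 0.85 and 1.10, and the synthase PTGES by 0.64 and 0.47. PTGES3 rose in both too, by 0.20 and 0.10, and PTGES2 changed by -0.24 and -0.50. HPGD, which breaks prostaglandins down, rose by 3.70 in DAOY from 0.244 ± 0.070 to 3.22 ± 0.95 CPM (SD, n = 3), and the prostaglandin importer SLCO2A1 changed by -0.88 there.

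Of 12 TNF, IL1 and colony-stimulating ligands, 2 rose and 2 fell in ONS76, and 4 rose and 2 fell in DAOY (medians 0.17 and 0.22). TNFSF15, a TNF family cytokine, rose in DAOY from 3.16 ± 0.67 to 50.4 ± 5.5 CPM (SD, n = 3). In ONS76, where it was close to 0, TNFSF15 was also called higher (2.79 ± 1.0, log2), and the responses were not shown to differ (1.21 ± 1.8, adjusted p = 0.722, edgeR). IL33 rose by 1.77 (log2) and CSF1 by 0.49 in DAOY. IL1A changed by -1.01 in ONS76 and -0.85 in DAOY, and TNFSF10 by -0.39 and -0.62. Of 23 receptors and adaptors, 3 rose and 7 fell in ONS76 and 4 rose and 6 fell in DAOY (medians -0.08 and 0.05). The adaptor kinase IRAK2 rose in both, by 0.27 and 1.16, and IRAK1 and the IL1 co-receptor IL1RAP fell in both. TNFRSF12A changed by -0.55 in ONS76, TNFRSF1B rose by 1.10 in DAOY, and TAB2 changed by -0.38 there.

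Of 8 genes of mRNA-binding and decay factors, 4 rose and 3 fell in ONS76, and 4 rose and 2 fell in DAOY (medians 0.10 and 0.19). ZFP36L1, a decay factor, rose by 0.42 and 0.30, and the roquin gene RC3H1 by 0.34 and 0.42. HNRNPD fell in both lines, at -0.31 and -0.40. ZFP36L2 rose by 0.70 in DAOY, and RC3H2 by 0.19 in ONS76.

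**Figure D5:**
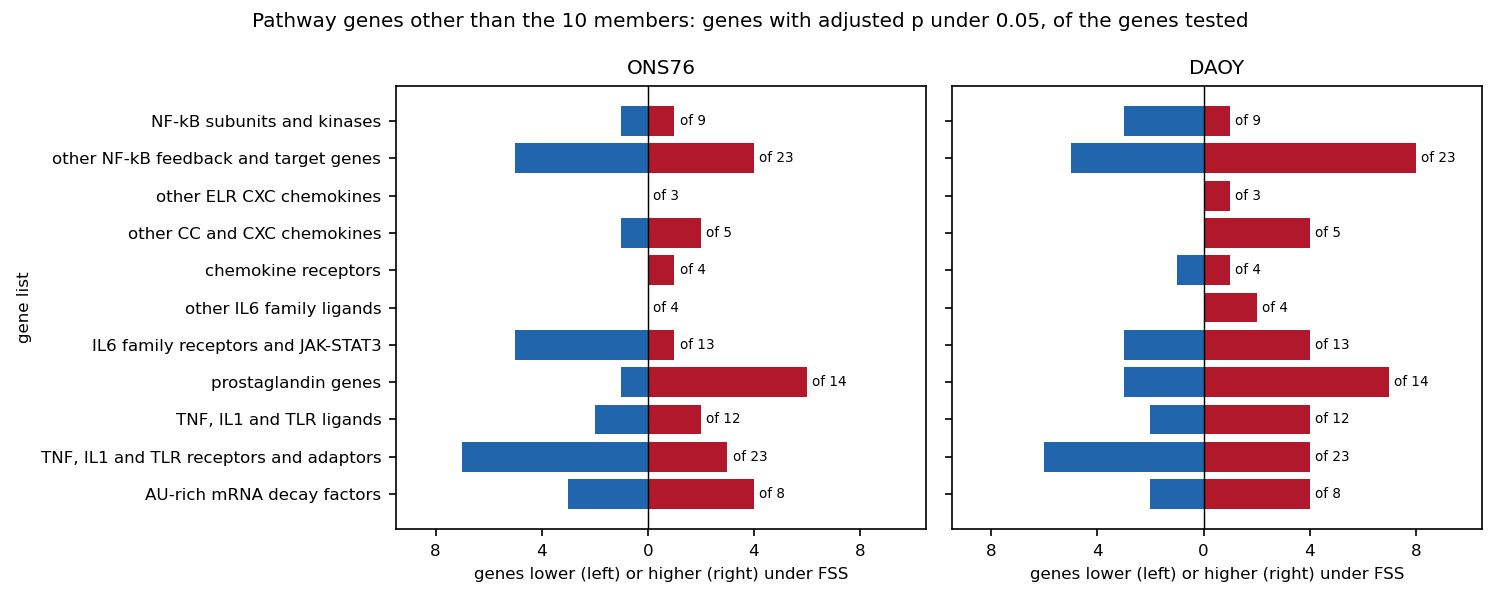
Genes of 11 pathway lists, the 10 members left out, that rose (red, right) or fell (blue, left) under FSS in each line at an adjusted p under 0.05 (edgeR), with the number tested beside each bar. Prostaglandin genes lean to the right in both lines, and chemokines lean to the right in DAOY. Other NF-kB targets there number 8 higher and 5 lower of 23, with a median change of 0.02 (log2).

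The genes whose pattern over the 4 group means was most like that of a member were found by the distance between centred log2 CPM profiles over these 4 groups. That of CXCL8 was nearest to KLF5, a Krüppel-like transcription factor gene (distance 0.0644), then HAFML and FLRT2. That of IL6 was nearest to KDR, a VEGF receptor gene (0.212), LURAP1L-AS1 and COL26A1. KDR changed by -1.75 (log2) in ONS76 and -0.27 in DAOY, the latter not called. CCL2 had no close neighbour, with CDO1 the nearest at 0.423, before CUX2 and ZFR2. The nearest to CXCL1 were TSPAN11, PHYHIPL and ATP1B2, to LIF TOP1MT, SLC7A2 and RNF128, and to PTGS2 LINC02870, PTPRE and ADSS1. Those of NFKBIA were ZNF793-AS1, SUGT1 and UBFD1, those of TNFAIP3 were SIAH2-AS1, CFAP298-TCP10L and GRIN3B, those of RELB were BTBD19, TSPAN5 and EIF4E, and those of NFKB2 were RABEPK, MT-ND3 and ZC3H18. Members were left out of this search, so how near they lie to each other is not given.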

How the data were processed

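Both tables used here, raw counts and TPM per gene for 12 libraries, are as the authors deposited them. Per the labels' protocols, directional polyA libraries from RNA with an integrity number over 9.8 were read as 100 bp pairs. The aligner was HISAT2 2.2.1, the build GRCh38 and the counter featureCounts, per the submitters' processing notes. The annotation and the strand, overlap and multi-mapping settings, and how the authors computed the deposited TPM values, are not given in the sources used. Rows without a symbol held 3.34% of counts.

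Counts were tested with edgeR 4.0.16 (R 4.3.3): filterByExpr, TMM scaling, quasi-likelihood fits with 1 mean per group over all 12 libraries, two-sided, Benjamini-Hochberg adjusted over 19631 genes, threshold 0.05. Tested genes held nearly all counts. SE is the absolute log2 change over the square root of F, and 95% intervals use the normal quantile. The code was tested on simulated counts. Alternatives were a replicate block, RLE and upper-quartile scaling, no and a stricter filter, each line alone, DESeq2 1.42.0, limma 3.58.1 on log2(TPM + 1) and log2(TPM + 0.1), leaving out each library, and static ONS76 replicate 3 alone, the last added after the data were seen. Depth (38.1 to 49.3 M) limits the precision of IL6 and CCL2 in ONS76 most. Promoter motifs and 3′ regions come from RefSeq and GENCODE 29.

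The members, gene lists and motifs were chosen with earlier results of these data known. From each list other than the members, up to 4 called genes with the smallest p per line were named, and for each member the 3 nearest genes at 1 CPM or more in a group (profiles with a prior count of 2). MYH6, the markers, TNF, CBR1 and CXCL3 fall outside this rule and were named with their values known. Results of 1 listed gene are not reported here.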

Additional observations from a re-analysis of the deposited data

Results flagged for a closer look

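By edgeR's test of the difference itself (DAOY response minus ONS76 response, log2), 19.1% of all tested genes were called, 8.34% higher and 10.7% lower. The responses of the lines differed in this test for 6 members. The value was 2.55 for CCL2 (1.21 to 3.39 over the alternatives), 1.71 for IL6, 0.87 for CXCL8, 0.78 for TNFAIP3, 0.37 for RELB and 0.33 for NFKB2. CCL2 and IL6 rest on few counts in ONS76. The calls of IL6 and RELB were lost when single libraries were left out, as given with those genes. Those of CCL2, CXCL8, TNFAIP3 and NFKB2 held in all 21 alternatives in which they were tested. Leukocyte, endothelial and medulloblastoma marker sums were also higher under FSS in both lines, and the neuronal and glial sum was lower. Their part in these differences was not tested.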

How the results depend on the processing

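Of 813 values of 38 results recomputed under 22 alternatives, 753 kept their direction and side of the threshold, 34 lost a call, 12 gained one and 14 changed sign. The count of members that fell in ONS76 (4) was 2 with static replicate 3 alone and ran from 2 to 4 when single libraries were left out. The genes called in ONS76, 2770 higher and 2735 lower, were 1558 and 1818 with static replicate 3 alone. The count of members with a smaller response in DAOY (0) ran from 0 to 1 over single libraries left out, with LIF called without DAOY static replicate 2. The count of members lower in static ONS76 (3) was 5 under upper-quartile scaling and 6 in each limma fit on TPM. Changes of sign were all in values not called in the reported fit: NFKB2 in ONS76, -0.0335 to 0.0513 over single libraries left out and -0.0502 with static replicate 3 alone; IL6 in DAOY, -0.0006 under RLE scaling, -0.0002 with no filter, -0.0031 and -0.0084 in limma on TPM, and -0.2899 (without FSS replicate 1) to 0.1619 over single libraries left out, with -0.1773 without static replicate 1; LIF in DAOY, -0.0815 (without static replicate 2) to 0.1079, with -0.0119 without FSS replicate 1; RELB in DAOY, -0.0025 (without static replicate 2) to 0.1233; and NFKBIA between static lines, -0.1262 under upper-quartile scaling and -0.3167 and -0.3203 in limma on TPM, where it was called lower in ONS76. In limma on log2(TPM + 1), whose pseudocount shrinks low genes, CCL2 and IL6 in ONS76 changed by -0.33 and -0.41. The cause of the other changes was not tested. IL6 was not tested under the stricter filter. Same-numbered replicates did not deviate together (correlations from -0.034 to 0.084), so numbers were not taken as pairs. With the replicate block, 2705 genes were higher and 2688 lower in ONS76, 3738 and 3886 in DAOY, 1592 and 2094 in the difference and 7370 and 8425 between static lines, and the block changed no member's call.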

Other observations

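One decay factor outside the rule for named genes was noticed after its values were seen. ZFP36, which encodes tristetraprolin, a protein that binds AU-rich elements and speeds the decay of cytokine messages, moved in opposite directions in the lines. It was at 10.3 ± 0.36 CPM under FSS and 13.3 ± 0.80 static in ONS76 (SD, n = 3), and at 6.63 ± 1.0 and 4.60 ± 0.17 CPM in DAOY. The log2 changes were -0.37 and 0.52, and the responses differed by 0.89 ± 0.15 (adjusted p = 4.10e-05, edgeR). TNFAIP3 and SOCS3 had the same signs in the same lines. ICAM1, an adhesion receptor gene and NF-kB target, also named after its values were seen, rose in DAOY by 0.25 (log2) and its responses differed by 0.43 (adjusted p = 0.00441, edgeR). Of the 23 tested genes in its list, 8 rose in DAOY and 5 fell there. Of all tested genes, 19.5% were called higher and 20.1% lower in DAOY.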
